A study of Mus musculus with 12 samples.

Results

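The genes described here are 32 named members of the ATF4 stress response and of serine and folate metabolism, taken by symbol from the platform annotation of the arrays. A probe set was found for 31 of them, among 19505 named genes on 22206 probe sets in all, and Gdf15 was not analysed here. They were set apart as 21 stress genes (regulators, amino acid carriers and other ATF4 targets) and 10 enzymes of serine synthesis and folate metabolism. RNA of whole kidneys from 16-week-old mice was read on Clariom S arrays, in 4 groups of 3 samples. The wild type (WT) group was given vehicle. The 3 Alport groups carried COL4A5 nonsense (G5X), hemizygous, and were given vehicle, losartan or metformin. Alport disease is a defect of collagen IV in the glomerular filter. Losartan is an antagonist of the type 1 receptor of angiotensin, and metformin, a diabetes drug, can inhibit mitochondrial respiration at high exposure. Metformin was given in drinking water at 2.5 mg/mL in weeks 6 to 11 and at 5 mg/mL from week 12, and losartan at 125 and then 250 µg/mL over the same weeks. The labels run the later dose to week 20, past the stated age, and call losartan co-administered, so each group is named by the drug in its sample titles. All mutant mice shared the Col4a5 allele. No WT group was given a drug, so the effect of either drug in WT kidney was not measured.

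ATF4 is a transcription factor whose mRNA is translated mainly when the initiation factor eIF2 is phosphorylated, as happens under shortage of amino acids, unfolded protein in the endoplasmic reticulum or mitochondrial stress. Its level is therefore set largely at translation, and the array reads its mRNA and not its protein. Together with partners of the C/EBP family it binds C/EBP-ATF elements and induces genes for amino acid uptake, asparagine and serine synthesis and mitochondrial folate metabolism. Folate carries single-carbon units from serine and glycine to purine, thymidylate and methionine synthesis, with parallel enzymes in mitochondria and cytosol. In the kidney many of these enzymes are made by the proximal tubule.

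The arrays gave log2 values from 2.3 to 19.88, with sample medians of 5.88 to 6.065 and lower quartiles of 4.182 to 4.25. Across probe sets (not independent of each other) samples correlated at 0.99 to 0.994 within groups and 0.975 to 0.993 between groups. Col4a5 itself read 5.06 to 5.83 in WT, 4.13 to 4.97 under Alport vehicle, 4.09 to 4.64 under losartan and 4.48 to 4.5 under metformin. It was 0.92 lower in Alport vehicle than in WT (limma adjusted p = 0.0116, and 0.0663 or 0.0519 without WT or Alport vehicle sample 2), at a signal below the median of every sample. Whether each sample is a mouse of its own is not stated in the labels, so p-values reflect only the scatter among these samples, which may be technical. Precision is limited by the number of arrays, with a standard error of 0.198 for the median probe set. Metformin sample 3 stood apart within its group, and the accounts of the metformin comparisons give values without it.

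Start-site sequences are shown because binding of ATF4 with C/EBP partners at this element defines many of the listed genes. RefSeq windows of build GRCm38.p6, 250 bases before to 50 after the start, were found for 27 of the 31 measured members, and not for Aldh1l2, Cth, Eif4ebp1 and Slc7a5. The C/EBP-ATF element was searched as TGATGNAA on both strands. It occurred in 9 of the 27 members and in 4.51% of all 27025 genes with a window. Stretches of 60 bases upstream of the start follow, 5′ to 3′ on the gene's strand, with the match in capitals.
Nupr1: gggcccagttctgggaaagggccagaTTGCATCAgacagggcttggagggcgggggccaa
Atf3: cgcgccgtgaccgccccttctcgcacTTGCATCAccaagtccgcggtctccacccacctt
Asns: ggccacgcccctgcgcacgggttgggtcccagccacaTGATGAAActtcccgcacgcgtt
Pck2: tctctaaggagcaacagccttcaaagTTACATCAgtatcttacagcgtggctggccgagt
Chac1: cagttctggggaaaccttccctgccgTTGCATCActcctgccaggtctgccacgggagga
Slc7a11: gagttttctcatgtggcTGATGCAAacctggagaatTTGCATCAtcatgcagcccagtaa

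These lie at chr7:126625547-126625606 (minus strand, Nupr1), chr1:191183410-191183469 (minus, Atf3), chr6:7693210-7693269 (minus, Asns), chr14:55540137-55540196 (plus, Pck2), chr2:119351023-119351082 (plus, Chac1) and chr3:50443637-50443696 (minus, Slc7a11). Slc7a11 carried 2 matches, 1 on each strand, and the others printed carried 1. Fgf21 and Vldlr also had a match upstream of the start, and Trib3 had 1 after it. The ER stress element (CCAAT and CCACG with 9 bases between) and the cAMP response element TGACGTCA, searched on both strands, occurred in 0 of the 27 members and in 0.137% and 2.03% of genes. Of the 9 members with the C/EBP-ATF element, 4 rose in Alport vehicle against WT, 0 fell and 5 did not pass the test. Of the 18 without it in the window, 6 rose, 3 fell and 9 did not pass. Over all probe sets 8.43% were called higher and 7.71% lower. Slc7a5 and Cth, both called in this comparison, had no window and are in neither count. Whether the element goes with a rise was not tested. A match is a description of the letters and not a measured site of binding.

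The comparison of Alport and WT kidneys under vehicle shows how the mutant kidney differed from normal at 16 weeks without either drug. Of the stress genes, the regulators Nupr1, Atf3, Ddit3 and Cebpb, the carriers Slc7a5 and Slc7a1, Asns and Pck2 rose and Cth fell. Of the serine and folate enzymes, Phgdh, Psat1 and Mthfd2 rose and Shmt2, Mthfd1 and Aldh1l1 fell. In total 15 of the 31 members passed the test (limma, Benjamini-Hochberg adjusted p under 0.05 over all probe sets), 11 of them higher and 4 lower in Alport. Over all probe sets 16.1% were called, 8.43% higher and 7.71% lower. The median log2 difference was 0.46 over the members and -0.03 over all probe sets. Values did not overlap between the groups for 15 members that were higher in Alport and 4 that were lower, against 14.2% and 15.5% of all probe sets. The 15 were the 11 that rose and Atf5, Trib3, Ddit4 and Mthfd1l, which did not pass. With each sample centred on its median the middle of all probe sets moved from -0.03 to -0.17. Then 6 members were called higher and 4 lower, a share of 60% higher against 73.3%. Over all probe sets 1451 were called higher and 2842 lower with centring, against 1871 and 1711 without it. The members that lost their call with centring were Ddit3, Cebpb, Asns, Pck2 and Phgdh.

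**Figure D1:**
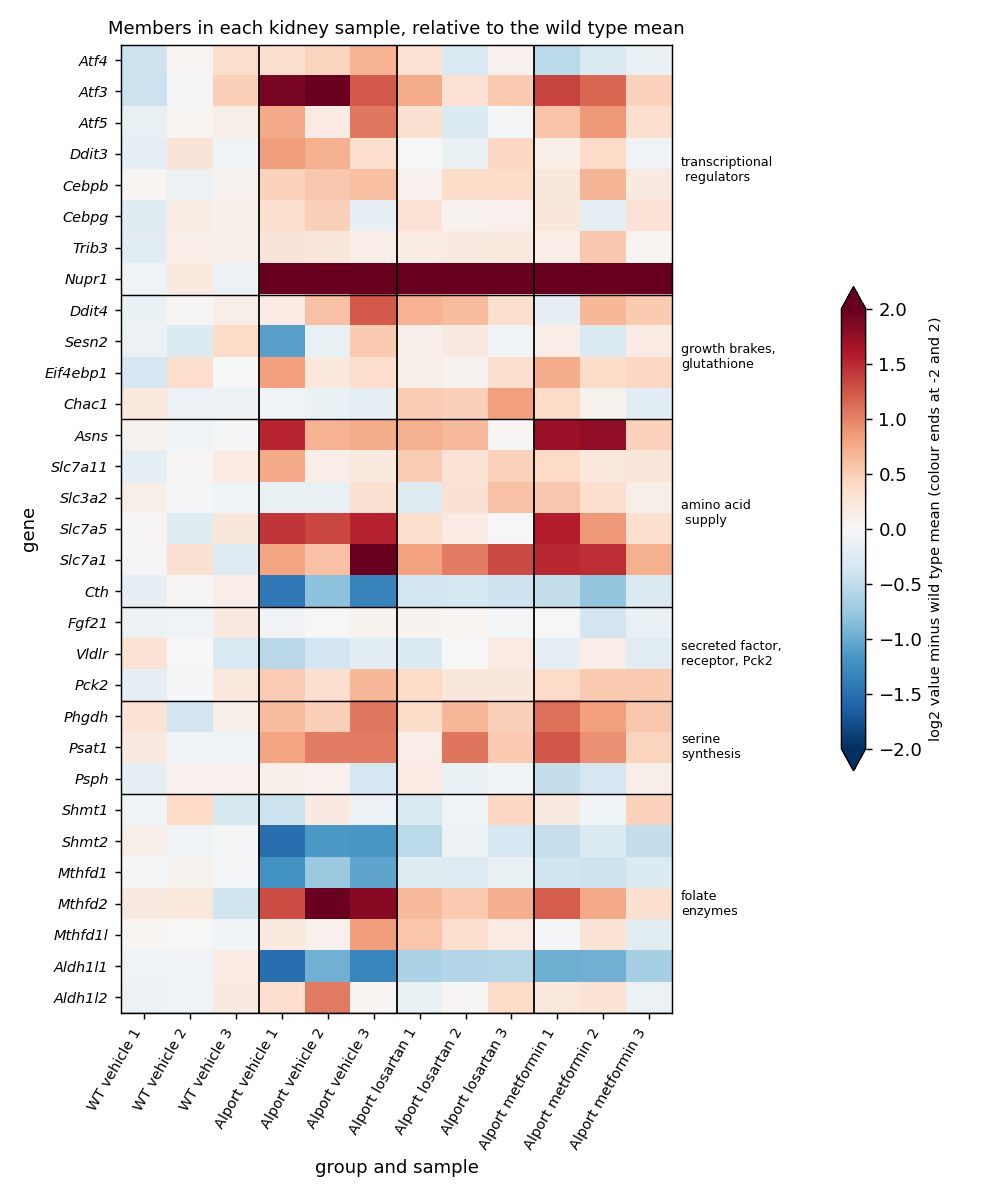
Log2 value of each measured member (rows, grouped by role) in each of the 12 samples (columns), minus the mean of the WT samples, on a colour scale that ends at -2 and 2. Nupr1 lies past the end of the scale in every Alport sample, and Shmt2, Mthfd1, Aldh1l1 and Cth lie below the WT mean in all 3 Alport vehicle samples.

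Among the 8 transcriptional regulators, Nupr1, Atf3, Ddit3 and Cebpb rose in Alport vehicle kidney and Atf4, Atf5, Cebpg and Trib3 did not pass the test. Nupr1, a small stress-induced chromatin protein, read 8.79, 9.07 and 8.75 in WT, 12.78, 12.58 and 13.13 under Alport vehicle, 11.39, 11.11 and 10.98 under losartan and 11.42, 11.56 and 11.15 under metformin. Every Alport sample lay above every WT sample, and every treated sample lay below every vehicle sample. The rise was 15.6-fold (log2 3.96 ± 0.19, SE, n = 3 per group; limma adjusted p = 9.73e-09), the largest among the members. Atf3, a factor induced early in the response, read 5.26, 5.65 and 6.17 in WT, 7.59, 8.04 and 6.92 under Alport vehicle, 6.43, 5.98 and 6.21 under losartan and 7.05, 6.84 and 6.15 under metformin. It rose 3.54-fold (1.82 ± 0.29, limma adjusted p = 0.000411), and its WT mean lay below the median of every sample, so the fold may be understated.

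Atf4 itself was bright in all groups. It read 11.53, 11.99 and 12.29 in WT, 12.26, 12.38 and 12.63 under Alport vehicle, 12.23, 11.63 and 12.02 under losartan and 11.4, 11.65 and 11.8 under metformin. WT and Alport vehicle overlapped, with a difference of 0.49 ± 0.21 (95% interval 0.03 to 0.94, limma adjusted p = 0.147). Ddit3, which encodes the pro-apoptotic factor CHOP, read 8.35, 8.81 and 8.48 in WT and 9.39, 9.26 and 8.89 under Alport vehicle, 8.54, 8.42 and 8.96 under losartan and 8.66, 8.93 and 8.47 under metformin. It rose by 0.63 ± 0.20 (limma adjusted p = 0.0422), but its other, dimmer probe set gave 0.26 (limma adjusted p = 0.337). Cebpb, a dimer partner of ATF4, read 6.11, 5.95 and 6.14 in WT and 6.52, 6.6 and 6.67 under Alport vehicle, a rise of 0.53 ± 0.17 (limma adjusted p = 0.0451). Both calls were narrow. That of Cebpb ended when any 1 of the 6 samples was left out (0.47 to 0.57, limma adjusted p = 0.075 to 0.139), and that of Ddit3 without WT samples 1 or 3 or Alport vehicle samples 1 or 2 (0.53 to 0.60, limma adjusted p = 0.0972 to 0.156).

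Atf5, an ATF4 relative tied to the mitochondrial stress response, read 4.77 to 5.03 in WT and 5.08 to 5.97 under Alport vehicle, and its difference of 0.66 ± 0.23 did not pass (limma adjusted p = 0.0588), but was 0.91 and passed without Alport vehicle sample 2 (limma adjusted p = 0.00838). Cebpg, the other C/EBP partner, and Trib3, a pseudokinase that restrains ATF4, differed by 0.21 (limma adjusted p = 0.562) and 0.20 (limma adjusted p = 0.494). The differences of all 8 regulators were above 0, with a median of 0.58 against -0.03 over all probe sets, and 4 passed. Centring each sample on its median moved the middle of all probe sets from -0.03 to -0.17. The direction of small differences such as 0.20 and 0.21 thus depends in part on scaling.

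The brakes on growth and the glutathione enzyme gave 0 calls of 4 between Alport vehicle and WT, with 2 at an unadjusted p under 0.05 (27.6% of all probe sets). Ddit4 and Sesn2, both inhibitors of mTORC1, differed by 0.66 ± 0.25 (limma adjusted p = 0.0962) and -0.24 ± 0.30 (limma adjusted p = 0.675). Without Alport vehicle sample 1, Ddit4 differed by 0.90 and passed (limma adjusted p = 0.0313). Eif4ebp1, which holds back cap-dependent translation, differed by 0.46 ± 0.21 (limma adjusted p = 0.166). Chac1, which degrades glutathione, stayed near the lower quartile of the arrays, at 4.12 to 4.45 in WT and 4.06 to 4.16 under Alport vehicle.

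Of the 6 genes of amino acid supply, Slc7a5, Slc7a1 and Asns rose and Cth fell. Slc7a5, the exchanger of large neutral amino acids, read 5.65, 5.39 and 5.86 in WT, 7.06, 6.97 and 7.18 under Alport vehicle, 5.95, 5.79 and 5.62 under losartan and 7.21, 6.5 and 5.96 under metformin. The Alport vehicle samples lay close together, while the metformin samples spanned the gap between the losartan and vehicle groups. The rise in Alport vehicle was 2.71-fold (1.44 ± 0.24, limma adjusted p = 0.000665), from a WT mean below the median of every sample. Asns, the asparagine synthetase, read 8.3, 8.18 and 8.21 in WT, 9.75, 8.93 and 8.97 under Alport vehicle, 8.94, 8.88 and 8.25 under losartan and 9.95, 10 and 8.69 under metformin. Alport vehicle sample 1 and metformin samples 1 and 2 were the highest. Its rise of 0.99 ± 0.31 (limma adjusted p = 0.0384) was not called without any 1 WT sample (0.96 to 1.02, limma adjusted p = 0.0812 to 0.0979) or without Alport vehicle sample 1 (0.72, limma adjusted p = 0.181).

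Slc7a1, the carrier of arginine and lysine, read 5.55, 5.9 and 5.34 in WT, 6.38, 6.19 and 7.71 under Alport vehicle, 6.4, 6.62 and 6.91 under losartan and 7.1, 7.07 and 6.3 under metformin. All 9 Alport samples lay above the WT samples. It rose by 1.16 ± 0.33 (limma adjusted p = 0.0211), and the difference was 0.69 (limma adjusted p = 0.0962) without Alport vehicle sample 3, the highest, and 1.14 or 1.03 (limma adjusted p = 0.0645 or 0.0872) without WT samples 1 or 3. Cth, which makes cysteine by transsulfuration, read 13.51, 13.69 and 13.8 in WT, 12.23, 12.84 and 12.33 under Alport vehicle, 13.29, 13.31 and 13.26 under losartan and 13.19, 12.9 and 13.37 under metformin. It fell in Alport vehicle by 1.20 ± 0.19 on the log2 scale (limma adjusted p = 0.000315), and the treated samples lay between both vehicle groups. Cth is listed as an ATF4 target, and it moved opposite to Slc7a5, Slc7a1 and Asns.

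Slc7a11, the cystine carrier, was dim at 4.39 to 4.76 in WT and 4.73 to 5.35 under Alport vehicle, a difference of 0.37 ± 0.18 (limma adjusted p = 0.214). Slc3a2, the shared heavy chain of Slc7a5 and Slc7a11, read 16.1 to 16.31 in WT and 16.04 to 16.49 under Alport vehicle, a difference of 0.01 (limma adjusted p = 0.99; 95% interval -0.44 to 0.46).

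Of Fgf21, Vldlr and Pck2, Pck2 passed the test. Pck2, the mitochondrial enzyme that makes phosphoenolpyruvate, read 5.66, 5.79 and 6.04 in WT, 6.34, 6.16 and 6.49 under Alport vehicle, 6.23, 6.06 and 6.05 under losartan and 6.22, 6.36 and 6.36 under metformin. It rose by 0.50 ± 0.16 (limma adjusted p = 0.0452), and the call ended without WT samples 1 or 2 or Alport vehicle samples 1 or 3 (0.42 to 0.49, limma adjusted p = 0.103 to 0.166). Fgf21, a stress hormone best known from liver, had all 4 group means under the lower quartile of each sample, at 3.62 to 4.18 over all samples. Vldlr, the receptor for very low density lipoprotein, differed by -0.39 ± 0.19 (limma adjusted p = 0.194).

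**Figure D2:**
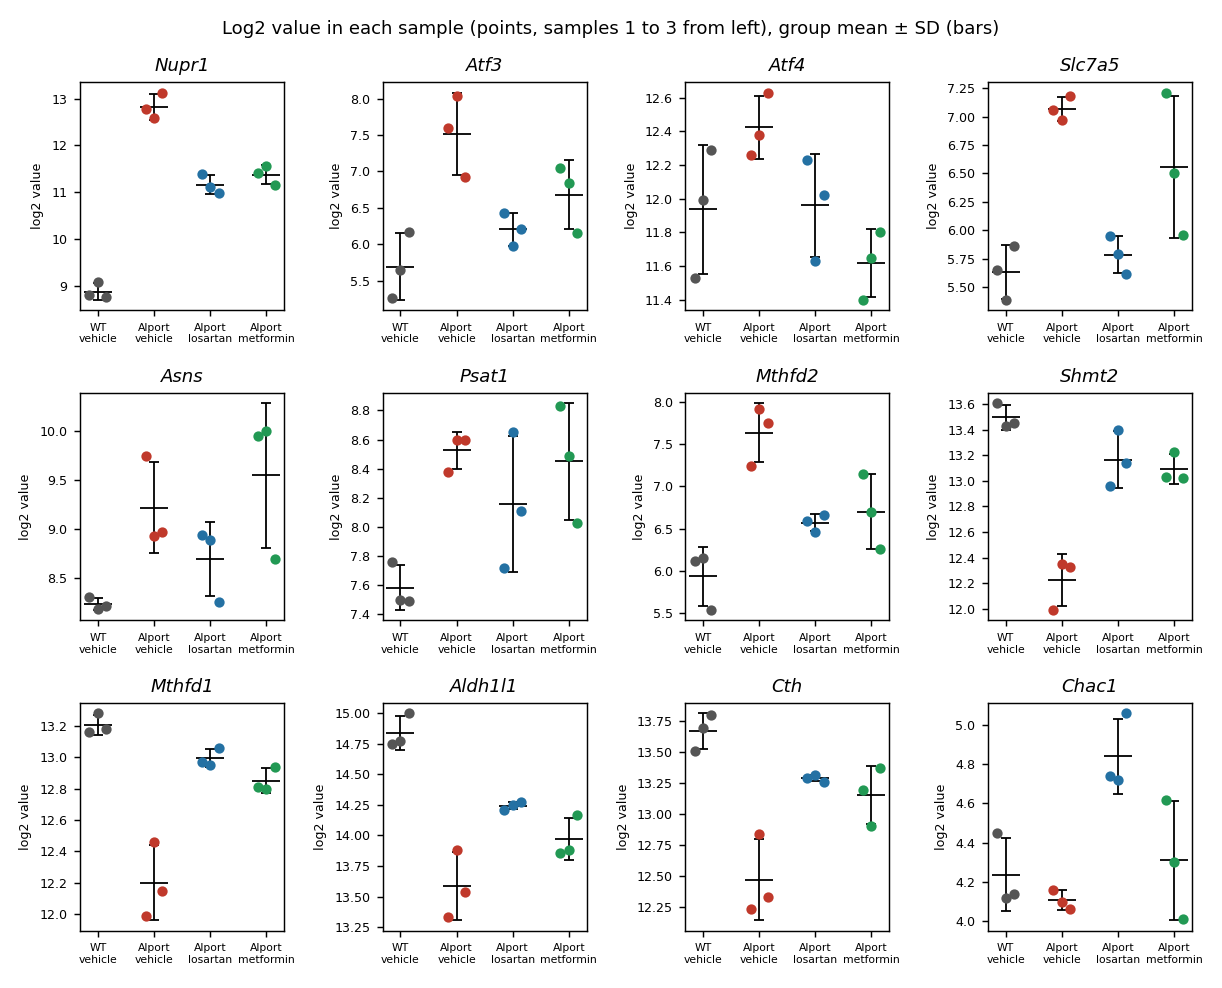
Log2 value in each sample (points, samples 1 to 3 from left) for 12 members, by group, with the group mean and SD as bars; the vertical axes differ between panels and do not start at 0. Nupr1, Slc7a5 and Mthfd2 are high and Shmt2, Mthfd1, Aldh1l1 and Cth low under Alport vehicle, and metformin sample 3 is the lowest of its group for Atf3, Slc7a5, Asns, Psat1 and Mthfd2.

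Serine synthesis from glycolysis runs through Phgdh, Psat1 and Psph. The first 2 enzymes of the path rose and the last did not pass. Phgdh read 6.29, 5.63 and 6.11 in WT, 6.64, 6.49 and 7.06 under Alport vehicle, 6.37, 6.68 and 6.49 under losartan and 7.11, 6.83 and 6.55 under metformin. No Alport sample overlapped with WT, and the rise in Alport vehicle was 0.72 ± 0.21 (limma adjusted p = 0.0281; 0.53 to 0.77 and limma adjusted p = 0.0535 to 0.139 without WT samples 2 or 3 or Alport vehicle samples 1 or 3). Psat1 read 7.76, 7.5 and 7.49 in WT, 8.38, 8.6 and 8.6 under Alport vehicle, 7.72, 8.65 and 8.11 under losartan and 8.83, 8.49 and 8.03 under metformin. It rose by 0.94 ± 0.23, or 1.92-fold (limma adjusted p = 0.0101). Psph differed by -0.05 ± 0.19 (95% interval -0.46 to 0.36, limma adjusted p = 0.916).

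The 7 folate enzymes split. Mthfd2, the mitochondrial dehydrogenase and cyclohydrolase that is low in most adult tissues, read 6.12, 6.15 and 5.54 in WT, 7.24, 7.91 and 7.75 under Alport vehicle, 6.59, 6.46 and 6.66 under losartan and 7.14, 6.7 and 6.26 under metformin. Vehicle samples were the highest and WT samples the lowest, with the treated samples between them. It rose 3.24-fold (1.70 ± 0.24, limma adjusted p = 0.000127). Shmt2, the mitochondrial enzyme that takes the single-carbon unit from serine, read 13.61, 13.43 and 13.45 in WT, 11.99, 12.35 and 12.33 under Alport vehicle, 12.96, 13.4 and 13.14 under losartan and 13.03, 13.23 and 13.02 under metformin. The fall in Alport vehicle was 1.27 ± 0.17 on the log2 scale, with the mean 2.42-fold lower (limma adjusted p = 8.66e-05). The enzyme before Mthfd2 in the mitochondrial path thus fell where Mthfd2 rose.

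Mthfd1, the trifunctional enzyme of the cytosol, read 13.16, 13.28 and 13.18 in WT, 11.99, 12.46 and 12.15 under Alport vehicle, 12.97, 12.95 and 13.06 under losartan and 12.81, 12.8 and 12.94 under metformin. It was 2.01-fold lower in Alport vehicle (-1.01 ± 0.16, limma adjusted p = 0.000357). Aldh1l1, which oxidises formyl-folate in the cytosol, read 14.75, 14.77 and 15 in WT, 13.33, 13.88 and 13.54 under Alport vehicle, 14.21, 14.25 and 14.27 under losartan and 13.86, 13.88 and 14.17 under metformin. It was 2.39-fold lower (-1.26 ± 0.17, limma adjusted p = 0.000114), and treated samples lay below WT in every case. Shmt1, Mthfd1l and Aldh1l2 did not pass, at -0.12 ± 0.23, 0.37 ± 0.20 and 0.47 ± 0.23 (limma adjusted p = 0.807, 0.257 and 0.194). Aldh1l2 was dim, with every group mean below the median of every sample.

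In 3 pairs a mitochondrial folate enzyme (Shmt2, Mthfd1l or Aldh1l2) was set against a cytosolic one within each sample, as the difference of their log2 values; Mthfd2 was not paired. The size of that difference mixes the 2 probe sets, and only its change between groups is read. For Shmt2 minus Shmt1 the difference was 4.48, 3.82 and 4.55 in WT and 3.2, 2.96 and 3.23 under Alport vehicle, a change of -1.15. For Mthfd1l minus Mthfd1 it was -7.18, -7.33 and -7.29 in WT and -5.85, -6.43 and -5.38 under Alport vehicle, a change of 1.38. For Aldh1l2 minus Aldh1l1 it was -10.49, -10.47 and -10.45 in WT and -8.62, -8.47 and -9.13 under Alport vehicle, a change of 1.73. The groups did not overlap in any of the 3 pairs, and each gave p = 0.1 in a two-sided exact permutation test, the smallest that 3 against 3 samples allow. Shmt2 minus Shmt1 thus fell and the other 2 differences rose, without a test that could pass the threshold. Each pair holds a member already called alone (Shmt2, Mthfd1 or Aldh1l1), so the pairs add no separate support. The partners Shmt1, Mthfd1l and Aldh1l2 did not pass alone. In the 2 pairs whose difference rose, the called change was the fall of the cytosolic enzyme. Under losartan and metformin the means were 3.94 and 3.70, -6.71 and -6.90, and -9.79 and -9.48, each between those of WT and Alport vehicle.

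Markers of some cell types moved in the same comparison, where 8.43% of all probe sets were called higher and 7.71% lower. Of 10 proximal tubule markers 9 fell (Slc5a12 at -0.61, limma adjusted p = 0.0807, did not pass), and their mean log2 value was 16.64 to 16.69 in WT, 15.52 to 15.97 under Alport vehicle, 16.27 to 16.59 under losartan and 16.4 to 16.52 under metformin. All 5 markers of injured tubule rose, with means of 5.79 to 6.05 in WT, 10.87 to 12.21 under Alport vehicle, 8.91 to 10.01 under losartan and 8.93 to 11.34 under metformin. Of 7 measured macrophage markers 6 rose, with means of 6.62 to 6.88, 8.93 to 10.5, 7.94 to 8.42 and 8.22 to 9.57 in the same order of groups. All 4 measured fibroblast markers rose, with means of 8.07 to 8.46, 12.54 to 12.77, 9.86 to 10.62 and 10.37 to 11.44. Other lists moved less. For thick ascending limb, neutrophils, adipocytes and adrenal cortex 0 markers were called. Among the 3 measured markers each of podocytes, T cells, B and plasma cells and urothelium, 1 rose. Among 5 markers of distal tubule and collecting duct 1 rose and 1 fell, as among 4 of endothelium. The part of these cell types in the results on the members was not tested. In whole kidney, fewer cells of a type and less RNA per cell cannot be told apart. Across Alport vehicle samples, sample 1 was the lowest and sample 2 the highest for all 4 members that fell. There sample 1 also had the lowest proximal tubule mean (15.52) and sample 2 the highest (15.97). The order differed in the other groups, where WT means spanned only 16.64 to 16.69 and metformin means 16.4 to 16.52. In WT, sample 1 had the highest proximal tubule mean (16.69) and was the lowest for 3 of these 4 members. Under losartan and metformin, sample 1 had the lowest mean (16.27 and 16.4) and was the lowest for 2 and 1 of them. Each order rests on 3 samples, and whether these members follow the markers was not tested.

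Losartan against vehicle in Alport kidney asks what blockade of the angiotensin receptor changed. Nupr1, Atf3, Slc7a5 and Mthfd2 fell, and Cth, Shmt2, Mthfd1, Aldh1l1 and Chac1 rose. These were 9 of 31 members, against 7.9% of all probe sets (3.79% higher and 4.11% lower), and the median difference was -0.11 over the members and 0.01 over all probe sets. This comparison and that of metformin with vehicle use the same Alport vehicle samples, which are also the Alport side of the comparison with WT, so their values are set side by side without a test of likeness. Nupr1 was 3.18-fold lower (-1.67 ± 0.19, limma adjusted p = 0.000254), Slc7a5 2.43-fold lower (-1.28 ± 0.24, limma adjusted p = 0.00519), Atf3 2.48-fold lower (-1.31 ± 0.29, limma adjusted p = 0.0126) and Mthfd2 2.09-fold lower (-1.06 ± 0.24, limma adjusted p = 0.0125). Nupr1, Slc7a5 and Mthfd2, which had the largest rises of their roles in Alport vehicle against WT, were thus lower with the drug.

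Shmt2 and Mthfd1 were 1.92-fold and 1.73-fold higher with losartan (0.94 ± 0.17 and 0.79 ± 0.16, limma adjusted p = 0.00366 and 0.00684). Cth and Aldh1l1 were 1.77-fold and 1.58-fold higher (0.82 ± 0.19 and 0.66 ± 0.17, limma adjusted p = 0.0139 and 0.0281). For these 4 enzymes every losartan sample lay above every vehicle sample. Chac1 read 4.16, 4.1 and 4.06 with vehicle and 4.74, 4.72 and 5.06 under losartan, higher by 0.73 ± 0.18 (limma adjusted p = 0.021), and no fold is given because its mean under vehicle was under the lowest of the samples' lower quartiles. Asns, Phgdh and Psat1, which had risen in Alport vehicle, differed by -0.53, -0.22 and -0.37 and did not pass (limma adjusted p = 0.372, 0.643 and 0.42). Without Alport vehicle sample 1 or losartan sample 2, the members called were 5 and 4, and without Alport vehicle sample 2 Atf5 was called as well (-0.91, limma adjusted p = 0.0162). Atf3 and Cth then did not pass (-1.27 and 0.70 without vehicle sample 1, limma adjusted p = 0.0537 and 0.0737; -1.20 and 0.81 without losartan sample 2, limma adjusted p = 0.0654 and 0.0552), nor did Mthfd2 without losartan sample 2 (-1.01, limma adjusted p = 0.0582). Chac1 lost its call without any of Alport vehicle samples 1 or 3 and losartan samples 2 or 3 (0.62 to 0.79, limma adjusted p = 0.0523 to 0.0979), and Aldh1l1 when any 1 of the 6 samples other than Alport vehicle sample 2 was left out (0.53 to 0.68, limma adjusted p = 0.0561 to 0.133).

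**Figure D3:**
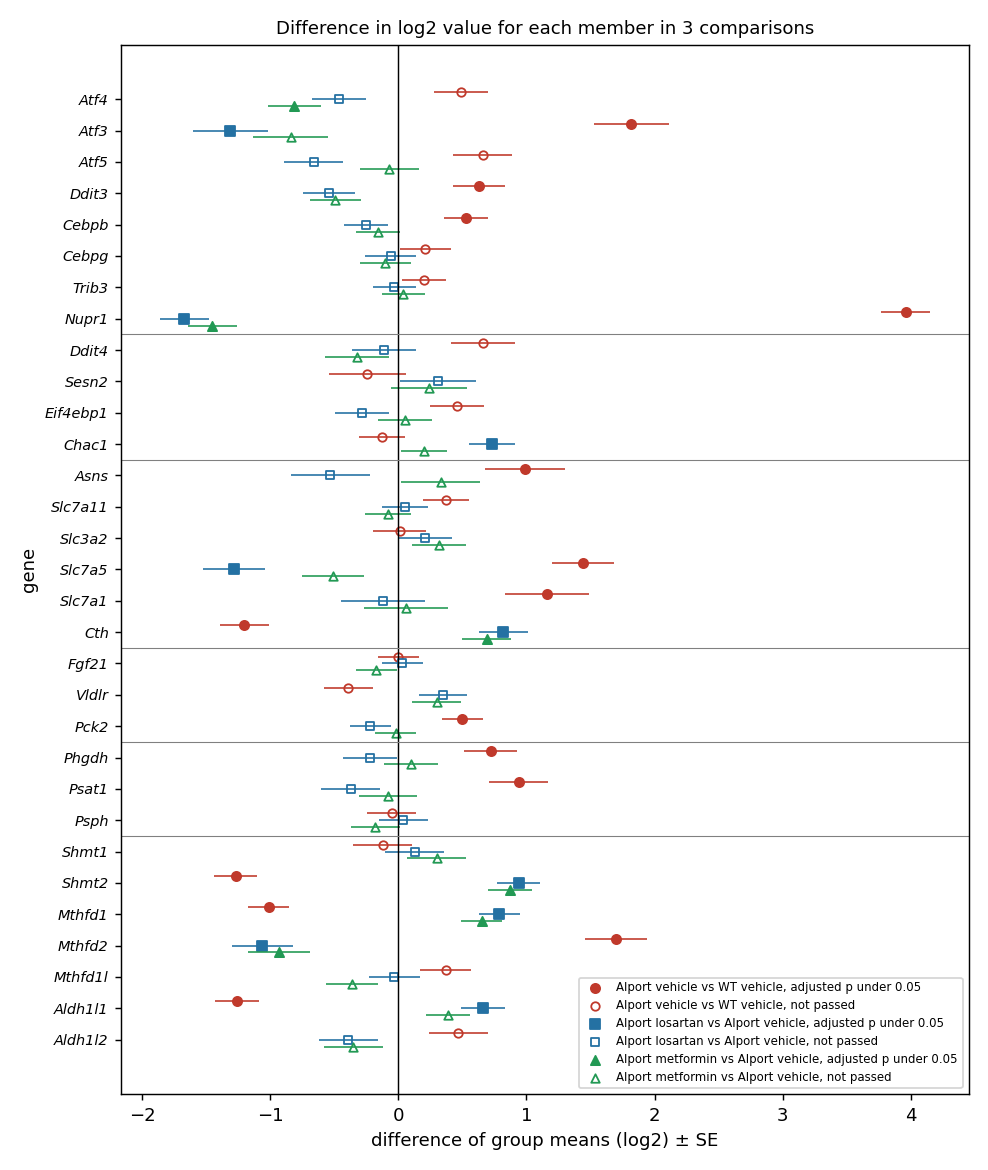
Difference of group means on the log2 scale (points) with its standard error (lines) for each member (rows, by role) in Alport vehicle against WT (red circles), losartan against vehicle (blue squares) and metformin against vehicle (green triangles), filled where the limma adjusted p was under 0.05. Nupr1 stands at 3.96, -1.67 and -1.45, and Shmt2 at -1.27, 0.94 and 0.87.

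Metformin against vehicle in Alport kidney gave 6 called members, against 4.94% of all probe sets (2.67% higher and 2.27% lower). Atf4, Nupr1 and Mthfd2 fell, and Shmt2, Mthfd1 and Cth rose. Nupr1 was 2.74-fold lower (-1.45 ± 0.19, limma adjusted p = 0.00111) and Mthfd2 1.91-fold lower (-0.93 ± 0.24, limma adjusted p = 0.0339). Atf4 was 1.75-fold lower (-0.81 ± 0.21, limma adjusted p = 0.0408), with all 3 metformin samples (11.4, 11.65 and 11.8) below all 3 vehicle samples (12.26, 12.38 and 12.63). The call of Atf4 did not stand without any 1 of the 6 samples (-0.90 to -0.70, limma adjusted p = 0.0594 to 0.124). Shmt2, Mthfd1 and Cth were 1.83-, 1.57- and 1.61-fold higher (0.87 ± 0.17, 0.65 ± 0.16 and 0.69 ± 0.19, limma adjusted p = 0.00903, 0.0282 and 0.0456).

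Slc7a5, Slc7a1, Asns, Phgdh and Psat1, which had risen in Alport vehicle, did not pass here with all samples. Slc7a5 differed by -0.51 ± 0.24 (95% interval -1.03 to 0.01, limma adjusted p = 0.275), Slc7a1 by 0.06 ± 0.33, Asns by 0.33 ± 0.31, Phgdh by 0.10 ± 0.21 and Psat1 by -0.08 ± 0.23 (limma adjusted p = 0.956, 0.649, 0.874 and 0.918). Slc7a5 was lower by 0.84 and passed without metformin sample 1 (-0.84, limma adjusted p = 0.0369). Atf3 differed by -0.84 ± 0.29 (limma adjusted p = 0.118), and by -1.14 without Alport vehicle sample 3, where it passed (limma adjusted p = 0.0448). The difference was 0.39 ± 0.17 for Aldh1l1 (limma adjusted p = 0.238). Metformin sample 3 was the lowest of its group for 10 of the 11 members that had risen in Alport vehicle. Its markers were lower as well, with means of 8.93 for injured tubule (11.34 and 10.87 in samples 1 and 2), 8.22 for macrophages (9.57 and 9.08) and 10.37 for fibroblasts (11.36 and 11.44), and their part in its lower values was not tested. Without it 2 members were called, Nupr1 (-1.34, limma adjusted p = 0.00963) and Shmt2 (0.91, limma adjusted p = 0.0372). Asns then differed by 0.76 and Slc7a5 by -0.22, and neither passed (limma adjusted p = 0.165 and 0.747). The count was also 2 without Alport vehicle sample 1 and 3 without Alport vehicle sample 3 or metformin sample 2. Shmt2 did not pass without Alport vehicle sample 1 (0.75, limma adjusted p = 0.0517). Cth lost its call without Alport vehicle samples 1 or 3 or metformin samples 1 or 3 (0.57 to 0.67, limma adjusted p = 0.104 to 0.191), Mthfd1 without the same samples or metformin sample 2 (0.55 to 0.67, limma adjusted p = 0.0558 to 0.126), and Mthfd2 without samples 2 or 3 of either group (-0.93 to -0.71, limma adjusted p = 0.0829 to 0.168).

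The drugs were also compared directly. Between metformin and losartan 0 of 31 members passed (limma), with 4 at an unadjusted p under 0.05, against 0.045% of all probe sets called (0.018% higher and 0.027% lower) and 8.37% at an unadjusted p under 0.05. The 4 were Slc7a5, Asns and Atf5, higher with metformin by 0.77 ± 0.24, 0.86 ± 0.31 and 0.59 ± 0.23 (95% intervals 0.25 to 1.29, 0.20 to 1.51 and 0.11 to 1.07), and Chac1, lower by 0.53 (95% interval -0.92 to -0.14). Their limma adjusted p-values were 0.4, 0.466, 0.494 and 0.438. Without metformin sample 3, Asns was higher with metformin by 1.28 and passed (limma adjusted p = 0.0422), and Slc7a5 was higher by 1.07 (limma adjusted p = 0.0536). For Nupr1, Shmt2, Mthfd1 and Mthfd2 the direct differences were 0.22 (95% interval -0.18 to 0.62), -0.07 (-0.43 to 0.29), -0.14 (-0.48 to 0.19) and 0.13 (-0.37 to 0.63), so differences between the drugs of up to about those bounds remain possible. For Atf4, called under metformin and not under losartan, the difference between the drugs was -0.34 (95% interval -0.80 to 0.11, limma adjusted p = 0.73).

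Against WT, losartan-treated Alport kidney differed in 1 of 31 members (0.549% of all probe sets, 0.401% higher and 0.149% lower). This was Nupr1, 4.89-fold higher (2.29 ± 0.19, limma adjusted p = 1.91e-05). Another 8 members had an unadjusted p under 0.05 without passing, 9 in all with Nupr1 against 10.7% of all probe sets. Metformin-treated kidney differed from WT in 7 members (4.18% of all probe sets, 2.7% higher and 1.48% lower). Nupr1 was 5.68-fold higher (2.51 ± 0.19, limma adjusted p = 2.97e-06). Asns, Slc7a1, Slc7a5, Psat1 and Phgdh were higher by 1.32, 1.23, 0.92, 0.87 and 0.82 (limma adjusted p = 0.0245, 0.0432, 0.0433, 0.0464 and 0.039), and Aldh1l1 was lower by 0.87 ± 0.17 (-0.87, limma adjusted p = 0.00956). The last 6 each lost the call without at least 1 sample. The count was 9 without metformin sample 3, with Atf3 (1.25, limma adjusted p = 0.0244) and Mthfd2 (0.98, limma adjusted p = 0.0293) added and Asns at 1.74 (limma adjusted p = 0.000725). It was 1 to 3 without any other 1 of the 6 samples. That these members passed against WT with metformin and not with losartan does not show that the drugs differ in them, as the direct comparison above gives.

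The neighbouring pathway was read from a list of 37 other genes of folate, methionine, glycine and transsulfuration metabolism, of which 32 were measured. In Alport vehicle against WT 18 of them fell and 1 rose (7.71% and 8.43% of all probe sets), with a median difference of -0.64. Sardh, which oxidises sarcosine in mitochondria, read 14.32, 14.22 and 14.4 in WT, 12.66, 13.27 and 13.13 under Alport vehicle, 13.77, 13.9 and 13.75 under losartan and 13.75, 13.66 and 13.89 under metformin, and was 2.45-fold lower with Alport vehicle (-1.29 ± 0.17, limma adjusted p = 9.22e-05). Dmgdh, which oxidises dimethylglycine, read 11.8, 11.94 and 11.93 in WT, 9.22, 10.22 and 10.59 under Alport vehicle, 11.48, 11.65 and 11.7 under losartan and 11.43, 11.57 and 11.79 under metformin, and was 3.68-fold lower (-1.88 ± 0.26, limma adjusted p = 0.000103). Ggh, the lysosomal folylpolyglutamate hydrolase, read 9.84, 9.78 and 9.62 in WT, 10.37, 10.22 and 10.54 under Alport vehicle, 10.28, 10.18 and 10.36 under losartan and 10.36, 9.87 and 10.14 under metformin. It was the gene that rose, by 0.63 ± 0.17 (limma adjusted p = 0.0164; 0.57 or 0.55, with limma adjusted p = 0.0694 or 0.0678, without WT or Alport vehicle sample 3). Both mitochondrial oxidases feed single-carbon units into folate, as Shmt2 does.

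With losartan 9 of these 32 genes rose and 0 fell against vehicle (3.79% and 4.11% of all probe sets). With metformin 10 rose and 0 fell (2.67% and 2.27% of all probe sets), with median differences of 0.43 and 0.38. Dmgdh was higher by 1.60 ± 0.26 and 1.59 ± 0.26 (limma adjusted p = 0.0017 and 0.00355), and Sardh by 0.79 ± 0.17 and 0.75 ± 0.17 (limma adjusted p = 0.0118 and 0.0224). Without Alport vehicle sample 1 the counts were 2 with losartan and 2 with metformin, and without Alport vehicle sample 3 they were 5 and 8. The losartan count was 3 without losartan sample 2 and 6 without losartan sample 3. The metformin count was 6 without metformin sample 2 and 2 without metformin sample 3, and 3 in a fit of only those groups. Sardh did not pass without Alport vehicle sample 1 (0.61 and 0.57, limma adjusted p = 0.0654 and 0.108), losartan sample 2 (0.74, limma adjusted p = 0.0572) or metformin sample 3 (0.68, limma adjusted p = 0.101). The proximal tubule markers given above moved the same way, 9 of 10 lower in Alport vehicle, and their part here was not tested.

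**Figure D4:**
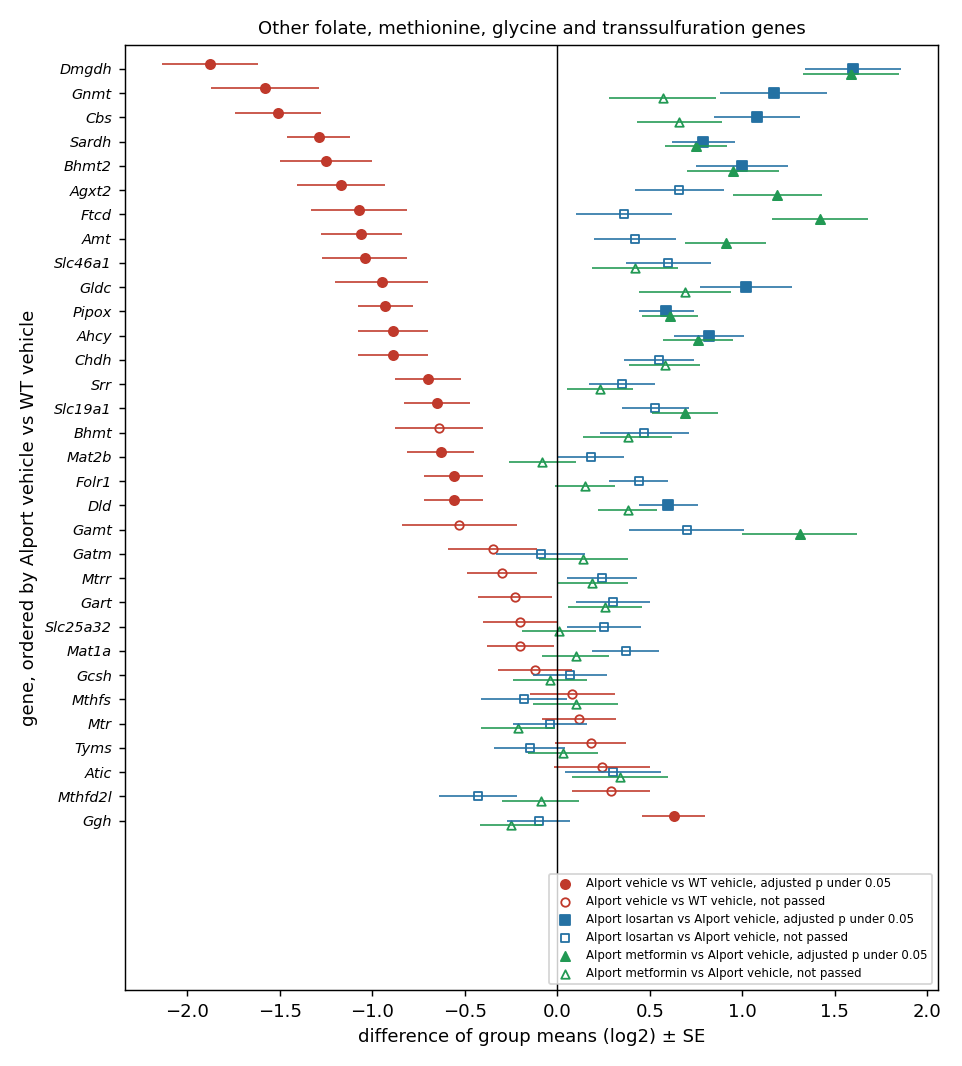
Difference of group means on the log2 scale (points) with its standard error (lines) for 32 other genes of folate, methionine, glycine and transsulfuration metabolism, ordered by Alport vehicle against WT, with the colours and fills of the plot of member differences. In Alport vehicle 18 genes fell and Ggh rose, and the points of both drug comparisons lie mostly to the right of 0.

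Other ATF4 target genes outside the members gave a mixed picture. Of 20 listed 19 were measured, and in Alport vehicle 3 rose and 2 fell (8.43% and 7.71% of all probe sets), with a median difference of -0.01. Slc38a2, a carrier of small neutral amino acids, read 12.92, 13.23 and 12.68 in WT, 14.59, 14.16 and 14.33 under Alport vehicle, 13.54, 13.42 and 13.77 under losartan and 13.39, 13.8 and 12.99 under metformin. It rose 2.67-fold (1.42 ± 0.21, limma adjusted p = 0.000246) and was lower with losartan and metformin than with vehicle (-0.78 ± 0.21 and -0.97 ± 0.21, limma adjusted p = 0.034 and 0.0173). The losartan call ended when any 1 of the 6 samples other than Alport vehicle sample 2 was left out (-0.88 to -0.67, limma adjusted p = 0.0526 to 0.146), and the metformin call without Alport vehicle sample 1 or metformin sample 3 (-0.85 and -0.77, limma adjusted p = 0.0856 and 0.0957). Stc2, a secreted glycoprotein, read 4.94, 4.33 and 4.87 in WT, 8.07, 5.84 and 7.07 under Alport vehicle, 5.88, 6.66 and 5.78 under losartan and 7.46, 6.49 and 5.7 under metformin, and rose in Alport vehicle by 2.28 ± 0.47 (limma adjusted p = 0.00267). Slc1a4, a carrier of serine and alanine, read 8.0, 7.43 and 7.86 in WT, 6.23, 6.76 and 6.66 under Alport vehicle, 7.14, 7.23 and 7.43 under losartan and 7.65, 8.52 and 7.54 under metformin. It was lower in Alport vehicle (-1.21 ± 0.24, limma adjusted p = 0.00234) and higher with metformin than with vehicle (1.35 ± 0.24, limma adjusted p = 0.00591). The carriers Slc38a2 and Slc1a4, both listed as ATF4 targets, thus moved in opposite directions in Alport kidney.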

How the data were processed

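Total kidney RNA of 12 samples in 4 groups was measured on Clariom S arrays. Each probe set has 1 deposited log2 value per sample, none missing; the scale was read from the values. The submitters' processing notes name Transcriptome Analysis Console 4.0, without its role. How background, normalization and summarisation were handled is not given in these sources, and an unknown scaling between arrays can shift all differences alike. Symbols came from the platform annotation. An update through RefSeq renamed 0 of them, and listed names not found there were sought through RefSeq synonyms. Of the probe sets, 19572 had 1 symbol, 0 had several and 2634 had none. The highest-mean probe set stood for a gene (of the members only Ddit3 had more than 1).

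Group means were fitted over the 12 samples in R 4.3.3 by limma 3.58.1 (eBayes, 8 residual degrees of freedom) for 6 comparisons, with Benjamini-Hochberg adjustment over all 22206 probe sets and no filter on dim ones. Changes were called at an adjusted p under 0.05. The code was tested on simulated data. Exact permutation tests served the 3 enzyme pairs. Members, lists and markers were chosen with earlier results of these data known. Per-sample values are given for called members with the largest change per role (up to 4), for members called in a drug comparison and for Atf4, and from each further list for up to 3 called genes with the smallest p, at least 1 in each direction where there is one. Promoter sequences are those of RefSeq. Alternatives were array weights, a replicate block, median centring, quantile normalization, a filter on the dimmest 33.3% of probe sets, a trended robust prior, fitting each pair of groups alone, an unadjusted p with a 2-fold change, the lowest-mean probe set and leaving out each sample.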

Additional observations from a re-analysis of the deposited data

How the results depend on the processing

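Of 38 changes called in single members, 13 kept their call under every alternative and 0 turned direction; of 569 values under an alternative, 418 kept the call and 151 lost it. Apart from the 2-fold rule, 9 of 15 members in Alport vehicle against WT kept the call throughout (Atf3, Nupr1, Slc7a5, Cth, Psat1, Shmt2, Mthfd1, Mthfd2 and Aldh1l1), 4 of 9 with losartan (Nupr1, Slc7a5, Shmt2 and Mthfd1), and Nupr1 alone in metformin against vehicle and in each drug group against WT. Leaving out 1 sample gave 10 to 14 members for Alport vehicle against WT, 4 to 10 for losartan and 2 to 4 for metformin against vehicle, 0 to 1 between the drugs, and 1 to 1 and 1 to 9 for losartan and metformin against WT. An unadjusted p with a 2-fold change gave 9, 4 and 1 members in the vehicle comparisons and 2 and 3 for losartan and metformin against WT. For metformin against vehicle, array weights gave 3 and a fit of only the groups compared 2; the latter gave 2 for losartan against WT. For metformin against WT, median centring gave 4 and quantile normalization 3. Over all probe sets the calls of metformin against vehicle went from 1096 to 410 with only the groups compared, and those of losartan against WT from 122 to 285, or 195 with array weights. Between the drugs 10 became 3 and 17 in these fits. The 2-fold rule gave 1565, 799, 511, 102, 239 and 542 in the order above, against 3582, 1755, 1096, 10, 122 and 928. Without 1 sample these whole-array counts ran from 2549 to 3756, 716 to 2073, 266 to 1320, 5 to 91, 37 to 62 and 346 to 1019; the lowest were without Alport vehicle 1, losartan 2, metformin 3, losartan 2, WT 3 and metformin 1, and 91 was without metformin 3. The cause was not tested. The enzyme pair changes ran from -1.38 to -1.02, 1.13 to 1.65 and 1.60 to 1.92 without 1 sample.

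Same-numbered samples did not deviate together (correlations of -0.14 to 0.078 over 18 pairs, 0 over 0.1), and different-numbered samples gave -0.198 to 0.262. No pairing by number was thus seen. With 3 samples per group this cannot exclude a shared litter or day, on which the labels are silent. With the replicate block 12, 9, 5, 0, 1 and 4 members were called in the order above, and the whole-array counts stayed within 1.5 times (15 against 10 between the drugs). The array gives no detection p, so dim genes such as Fgf21 and Chac1 are bounded by background.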

Other observations

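The other arms of these stress responses were read from lists of the same kind. Of 10 measured aminoacyl-tRNA synthetases, which charge tRNAs and are ATF4 targets in many cells, 0 passed between Alport vehicle and WT (limma; 1 at an unadjusted p under 0.05; 16.1% and 27.6% of all probe sets), with differences from -0.36 to 0.28. Of 10 measured genes for eIF2 kinases, eIF2 phosphatase subunits and eIF2B, 0 passed (limma; 1 at an unadjusted p under 0.05). With losartan against vehicle 1 of the 10 passed, near the 7.9% of all probe sets. It was Eif2b1, higher by 0.61 ± 0.18 (limma adjusted p = 0.0438). That call is narrow, and its dependence on single samples is not given here. With metformin against vehicle 0 passed. The ATF6 and XBP1 arms of the unfolded protein response gave 0 rises and 2 falls among 14 measured genes (8.43% and 7.71% of all probe sets), Edem1 (-0.68 ± 0.19, limma adjusted p = 0.0209) and Ern1 (-0.61 ± 0.19, limma adjusted p = 0.0327), with a median of -0.04. Edem1, which directs misfolded glycoproteins to degradation, read 12.28, 11.95 and 12.06 in WT, 11.09, 11.4 and 11.75 under Alport vehicle, 12.06, 12.11 and 11.83 under losartan and 11.84, 11.88 and 12.22 under metformin. Ern1, which encodes the sensor IRE1, read 8.58, 8.67 and 8.71 in WT, 8.2, 7.89 and 8.03 under Alport vehicle, 8.69, 7.99 and 8.35 under losartan and 8.46, 8.31 and 8.66 under metformin. Both calls ended when WT sample 1 was left out (-0.59 and -0.65, limma adjusted p = 0.0905 and 0.0622) or WT sample 3 (-0.70 and -0.58, limma adjusted p = 0.0518 and 0.0953). Edem1 was also lost without Alport vehicle sample 1 (-0.52, limma adjusted p = 0.108), and Ern1 without WT sample 2 or Alport vehicle samples 2 or 3 (-0.61 to -0.54, limma adjusted p = 0.0762 to 0.0961).

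The 11 mitochondrial chaperones and proteases all had differences below 0 in Alport vehicle against WT, with a median of -0.47, and 4 fell, against 7.71% of all probe sets. Trap1, the mitochondrial HSP90 chaperone, read 12.32, 11.92 and 11.92 in WT, 10.74, 11.18 and 11.07 under Alport vehicle, 11.83, 11.94 and 12.15 under losartan and 11.54, 11.78 and 11.74 under metformin. It was 2.08-fold lower in Alport vehicle (-1.06 ± 0.18, limma adjusted p = 0.000621) and 1.97-fold and 1.61-fold higher with losartan and metformin than with vehicle (limma adjusted p = 0.00398 and 0.0369). The metformin call ended without Alport vehicle samples 1 or 3 or metformin samples 2 or 3 (0.56 to 0.73, limma adjusted p = 0.0638 to 0.155). Clpx, the unfoldase of the ClpXP protease, read 12.54, 12.76 and 12.59 in WT, 11.97, 11.89 and 11.69 under Alport vehicle, 12.14, 12.09 and 12.11 under losartan and 11.77, 11.91 and 11.74 under metformin. It was lower in Alport vehicle (-0.78 ± 0.15, limma adjusted p = 0.00188) and in metformin-treated kidney (-0.82, limma adjusted p = 0.00575) than in WT. Dele1, which relays mitochondrial stress to eIF2 kinases, read 10.52, 10.47 and 10.81 in WT, 8.99, 9.93 and 10.22 under Alport vehicle, 10.29, 10.38 and 10.21 under losartan and 10.57, 10.07 and 10.61 under metformin. It was lower in Alport vehicle (-0.89 ± 0.25, limma adjusted p = 0.0246), with a difference of -0.53 (limma adjusted p = 0.12) without Alport vehicle sample 1, and of -0.93 or -0.78 (limma adjusted p = 0.0534 or 0.0978) without WT samples 1 or 3. The count of falls was 2 without WT samples 1 or 3 or Alport vehicle sample 1, and 7 with each sample centred on its median. Proximal tubule markers fell in the same comparison (9 of 10), and their part in these falls was not tested.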
